A study of Mus musculus with 8 samples.

Results

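Genes of red blood cells, 5 in all, were followed across 8 mouse brain and brain tumor libraries: the adult alpha globin genes Hba-a1 and Hba-a2, the adult beta globin genes Hbb-bs and Hbb-bt, and Alas2. They are 5 of the 55414 genes in the count table and were chosen by name, because globin counts had been seen to be lower in the libraries labelled MRX-2843 than in those labelled vehicle. That contrast is therefore given here as a description, without a test, and supports nothing by itself. All 5 genes passed the filter on low counts.

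Hemoglobin is a tetramer of alpha and beta globin chains, each holding a heme group that binds oxygen. Alas2 is the erythroid form of aminolevulinate synthase, which begins heme synthesis, while Alas1 does the same step in other tissues. Globin RNA is made in erythroid precursors of the marrow and spleen and persists in reticulocytes, the youngest red cells of the blood, so a piece of brain normally carries some of it in the blood left in its vessels. Low globin expression in neurons and glia has also been described.

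The study used mice of a model of supratentorial ependymoma driven by the ZFTA-RELA fusion. Mice in which MRI had shown a tumor were randomised and received vehicle or 50 mg/kg of the MERTK and FLT3 kinase inhibitor MRX-2843 by oral gavage once a day for 5 days, and tissue was taken 1 h after the last dose. Naive brain and tumor of either treatment make 4 groups, each with 2 libraries. For all 8 libraries the genotype label is the fusion and the cell line label the name of the drug, and the labels leave unsaid whether naive brain came from tumor-bearing mice. Strain, age and perfusion of the brain with buffer are not given in the sources used here. The libraries of a group are called duplicates without a word on separate animals, so p-values measure the spread between libraries, which may be technical. A column number is 909 for every MRX-2843 library, 915 for vehicle naive library 2 and 914 for the other vehicle libraries. Treatment and whatever this number stands for therefore cannot be told apart. Apart from vehicle naive library 2, naive and tumor libraries of a treatment share the number. Whether they are paired is not given in the sources used here.

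Library totals ran from 51150569 to 112938462 counts. The libraries labelled MRX-2843 tumor resembled naive brain: across 16489 genes, which are not independent replicates, Pearson's r with vehicle naive brain was 0.961 to 0.964 and with vehicle tumor 0.610 to 0.619. The mitochondrial genome gave 3.26 and 3.37% of counts in vehicle tumor and 14.7 to 18.5% in the other 6 libraries. Xist, an RNA made from the inactive X chromosome, was at 526 to 795 CPM (the read count relative to the size of its library, scaled by TMM) in the 4 MRX-2843 libraries and at 0.408 to 2.88 CPM in the 4 vehicle libraries. The Y-linked gene Ddx3y had 2168 to 6717 counts per vehicle library and 0 in each MRX-2843 library, where a count of 0 allows up to 3 counts. Treatment and these sex-linked differences cannot be told apart, and Alas2 itself is X-linked.

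The globin genes come in pairs with nearly identical coding sequences. In the GENCODE M21 annotation of GRCm38, Hba-a1 lies at chr11:32283511-32284465 and Hba-a2 at chr11:32296489-32297298, both on the plus strand and 12023 bases apart. Hbb-bt lies at chr7:103812524-103813996 and Hbb-bs at chr7:103826534-103828096, both on the minus strand and 12537 bases apart. Alas2 lies at chrX:150547375-150570638 on the plus strand. The coding sequences of Hba-a1 and Hba-a2 were 99.8% identical, with 1 mismatch in 429 bases, and 87.1% of the 50-base stretches of either occurred in the other. Those of Hbb-bs and Hbb-bt were also 99.8% identical, with 1 mismatch in 444 bases and 92.9% of 50-base stretches shared. Hba-a1 and Hbb-bs were 61.3% identical and shared no 50-base stretch. Whole transcripts differed more: 67.5% of the 50-base stretches of Hba-a1 occurred in Hba-a2 and 86.9% the other way. For Hbb-bs and Hbb-bt these shares were 65.8 and 58.3%. How the counting treated reads that fit both copies is not given in the sources used here, so the split within a pair is uncertain. The 4 globin genes are therefore counted as 2 separate measurements, alpha and beta.

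The sequences just upstream of these genes are shown because they bear the short motifs that erythroid genes are known for. Each is the 250 bases before the RefSeq start on GRCm38.p6, read on the strand of the gene: chr11:32296242-32296491 for Hba-a2, chr7:103827929-103828178 for Hbb-bs, chr7:103813924-103814173 for Hbb-bt and chrX:150547167-150547416 for Alas2. Capitals mark, on either strand, AGATAA or AGATAG and, with the other first letter, TGATAA or TGATAG (sites of the GATA type, bound by GATA1 in erythroid cells), CACCC (bound by KLF1 and its relatives), CCAAT and TATAA. Some matches overlap or touch, and each window reaches into the span that M21 gives its gene, since the starts differ between the annotations.
Hba-a2: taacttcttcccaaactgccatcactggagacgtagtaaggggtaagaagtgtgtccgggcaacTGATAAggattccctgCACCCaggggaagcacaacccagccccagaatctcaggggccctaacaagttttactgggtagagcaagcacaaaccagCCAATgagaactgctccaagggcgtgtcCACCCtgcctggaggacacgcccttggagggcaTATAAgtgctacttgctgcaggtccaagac
Hbb-bs: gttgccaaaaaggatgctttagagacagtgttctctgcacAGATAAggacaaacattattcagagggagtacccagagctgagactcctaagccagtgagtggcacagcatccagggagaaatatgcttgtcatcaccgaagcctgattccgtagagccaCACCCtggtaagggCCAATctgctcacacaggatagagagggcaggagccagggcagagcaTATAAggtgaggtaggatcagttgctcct
Hbb-bt: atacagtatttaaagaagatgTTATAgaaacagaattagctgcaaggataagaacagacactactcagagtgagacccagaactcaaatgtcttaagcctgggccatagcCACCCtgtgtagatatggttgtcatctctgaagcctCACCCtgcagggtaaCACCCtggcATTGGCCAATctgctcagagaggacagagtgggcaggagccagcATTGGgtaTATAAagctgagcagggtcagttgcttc
Alas2: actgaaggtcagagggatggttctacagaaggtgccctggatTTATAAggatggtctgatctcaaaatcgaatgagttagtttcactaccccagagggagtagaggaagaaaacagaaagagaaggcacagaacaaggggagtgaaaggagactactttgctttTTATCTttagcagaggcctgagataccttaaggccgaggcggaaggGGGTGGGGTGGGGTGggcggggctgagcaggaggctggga
The windows of Hba-a1 and Hba-a2 shared an unbroken run of 247 bases, while those of Hbb-bs and Hbb-bt were 70.9% identical. A GATA-type site was present upstream of Hba-a1, Hba-a2, Hbb-bs and Alas2 and in 26.5% of 32851 such windows of all genes. None of its 4 spellings was in the window of Hbb-bt. A CACCC match was present in all 5 windows and in 52.0% of all windows, and a CCAAT match in the 4 globin windows and in 33.9% of all windows. TATAA lay 27 to 30 bases before the start of the 4 globin genes, and 22.8% of all windows held it anywhere. The 3 globin windows with a GATA-type site, a CACCC and a CCAAT match together were those of Hba-a1, Hba-a2 and Hbb-bs, a combination found in 3.92% of all windows. These matches describe the letters and not binding.

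Globin counts were highest in vehicle naive brain, lower in vehicle tumor, and far lower in every MRX-2843 library. Together the 4 genes gave 65239 and 66989 counts in the vehicle naive libraries, 50172 and 50322 in vehicle tumor, 3762 and 7775 in the MRX-2843 naive libraries, and 3220 and 3836 in MRX-2843 tumor. As a share of all counts this was 0.0888% and 0.0955%, 0.0663% and 0.0644%, 0.00735% and 0.00688%, and 0.00549% and 0.00631% in the same order. The exact 95% binomial interval ran from 0.00530 to 0.00568% for the lowest share, that of MRX-2843 tumor library 1, and covers counting error only. In bulk tissue, fewer red cells, less globin RNA per red cell and less globin RNA in other cells cannot be told apart.

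Hba-a1 (ENSMUSG00000069919.8), an alpha chain gene, was at 292 and 311 CPM in vehicle naive brain, 178 and 176 in vehicle tumor, 26.0 and 21.1 in the MRX-2843 naive libraries, and 16.4 and 18.8 in MRX-2843 tumor. Hba-a2 (ENSMUSG00000069917.8), the other alpha chain gene, was at 271 and 284, 164 and 163, 22.9 and 19.6, and 15.1 and 17.8 CPM in the same libraries. Both alpha genes kept the order vehicle naive brain, then vehicle tumor, then MRX-2843 naive brain, then MRX-2843 tumor, and no neighbouring groups overlapped in that order. Libraries of vehicle tumor lay below those of vehicle naive brain without overlap for 40.4% of all genes tested, and those of MRX-2843 tumor below those of MRX-2843 naive brain for 28.7%.

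Hbb-bs (ENSMUSG00000052305.7), a beta chain gene, was at 231 and 242 CPM in vehicle naive brain, 142 and 139 in vehicle tumor, 15.7 and 19.7 in the MRX-2843 naive libraries, and 14.2 and 15.9 in MRX-2843 tumor. Hbb-bt (ENSMUSG00000073940.4), the other beta chain gene, was at 143 and 161, 96.3 and 93.3, 12.6 and 12.5, and 11.025 and 12.1 CPM. The order of the groups was that of the alpha genes, but the MRX-2843 tumor and naive libraries overlapped for Hbb-bs and lay within 1.14-fold of each other for Hbb-bt.

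Alas2 (ENSMUSG00000025270.14) was at 2.74 and 3.53 CPM in vehicle naive brain, 1.06 and 2.29 in vehicle tumor, 0.349 and 0.459 in the MRX-2843 naive libraries, and 0.738 and 0.287 in MRX-2843 tumor. These values rest on 191 and 237, 92 and 202, 17 and 49, and 42 and 17 counts. The MRX-2843 groups overlapped and lay below every vehicle library. Per kilobase of coding sequence, the mean level in vehicle naive brain was 703 ± 32.2 CPM for Hba-a1, 647 ± 22.0 for Hba-a2, 532 ± 17.3 for Hbb-bs, 342 ± 28.4 for Hbb-bt and 1.78 ± 0.316 for Alas2 (SD, n = 2). The order of the 5 genes by mean level per kilobase was the same in the other 3 groups.

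**Figure D1:**
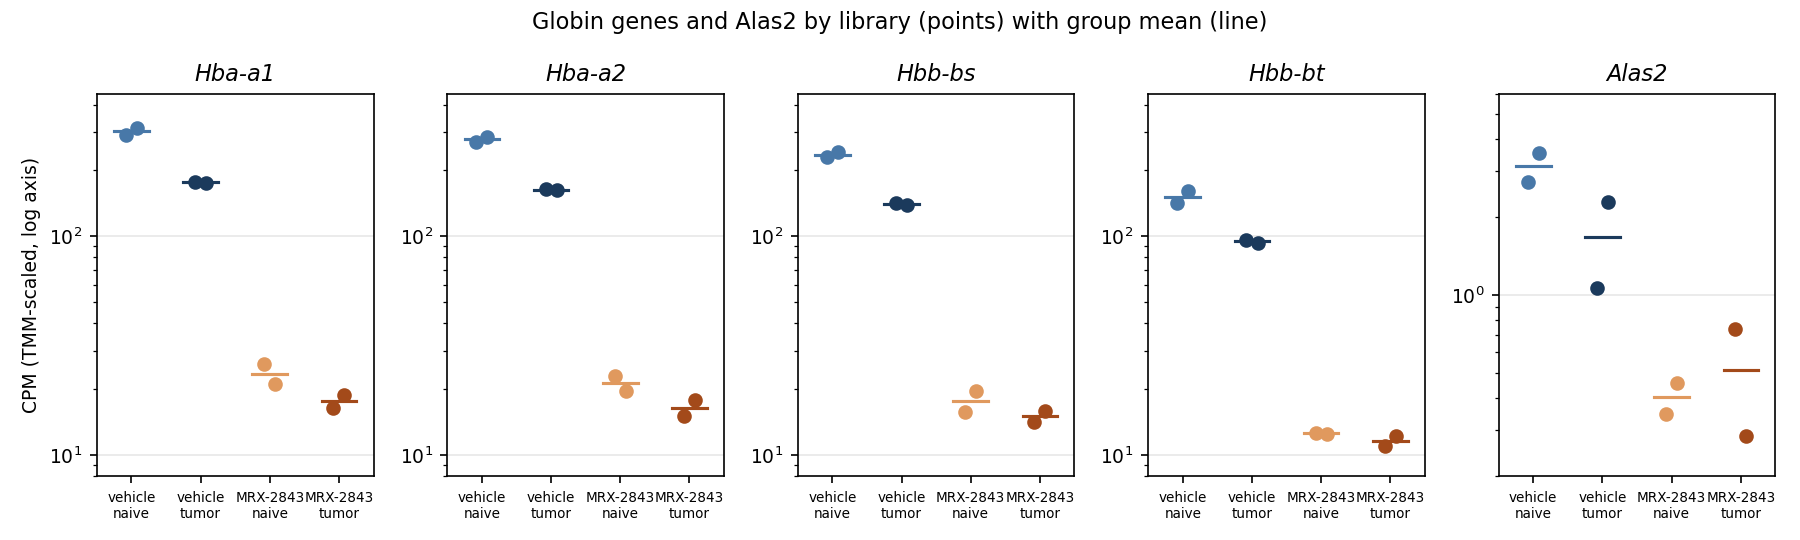
Level of each gene (CPM after TMM scaling, log axis, a separate axis range for Alas2) in the 4 groups, with 1 point per library and a line at the group mean. For Hba-a1 the vehicle libraries sit between 176 and 311 CPM and the MRX-2843 libraries between 16.4 and 26.0 CPM.

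The drop from vehicle to MRX-2843 was of similar size for the 4 globin genes and is described without a test, since it chose them. In naive brain, the summed globin level was 967 ± 43.6 CPM with vehicle and 75.0 ± 3.04 CPM with MRX-2843 (SD, n = 2), a ratio of 12.9, and ratios between single libraries ran from 12.1 to 13.7. By gene the ratio of group means was 12.8 for Hba-a1, 13.1 for Hba-a2, 13.4 for Hbb-bs, 12.1 for Hbb-bt and 7.76 for Alas2. In tumor the summed level was 576 ± 6.54 CPM with vehicle and 60.7 ± 5.71 CPM with MRX-2843, a ratio of 9.49, with library ratios from 8.82 to 10.2. By gene the tumor ratio was 10.04 for Hba-a1, 9.94 for Hba-a2, 9.35 for Hbb-bs, 8.18 for Hbb-bt and 3.27 for Alas2, the last with library ratios from 1.44 to 7.99.

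All 4 MRX-2843 libraries lay below all 4 vehicle libraries for 5 of 5 genes, as they did for 5.41% of the 24356 genes tested. Within naive brain the libraries did not overlap in this direction for 27.5% of genes tested, and within tumor for 40.4%. Ranked by fitted log2 fold change from the lowest, the 4 globin genes stood at places 499 to 516 of 24356 in naive brain and 1903 to 2181 in tumor, and Alas2 at 665 and 4030.

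The comparison of tumor with naive brain was not what chose these genes, and it can be tested. In vehicle-treated mice globin RNA was lower in tumor than in naive brain, and by nearly the same factor for all 4 genes. Hba-a1 had a mean of 302 ± 13.8 CPM in naive brain and 177 ± 1.43 CPM in tumor (SD, n = 2), a log2 fold change of -0.77 ± 0.08 (SE; adjusted p = 1.17e-06 in edgeR's quasi-likelihood test with Benjamini-Hochberg adjustment). Hba-a2 changed from 278 ± 9.45 to 164 ± 0.957 CPM, by -0.76 ± 0.08 (edgeR adjusted p = 6.5e-07). Hbb-bs changed from 236 ± 7.69 to 140 ± 2.01 CPM, by -0.75 ± 0.08 (edgeR adjusted p = 1.62e-06), and Hbb-bt from 152 ± 12.6 to 94.8 ± 2.13 CPM, by -0.68 ± 0.07 (edgeR adjusted p = 1.19e-06). The globin genes thus passed in 4 of 4 cases, as 2 separate measurements, where 60.1% of all genes tested passed, 30.8% as lower and 29.3% as higher in tumor.

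Alas2 also lay lower in both vehicle tumor libraries than in both naive ones, at means of 1.68 ± 0.868 and 3.14 ± 0.558 CPM, but did not pass (log2 fold change -0.90 ± 0.52, edgeR adjusted p = 0.154). The lower of the tumor libraries was library 1, and without library 2 the value was -1.56. Over the 18 alternatives the Alas2 value ran from -1.56 to -0.45, and in 17 of them it did not pass. Library totals without scaling gave a smaller fall for the globins, -0.52 for Hba-a1, with all 4 calls kept; that scaling moved the median of all genes from -0.03 to 0.21.

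With MRX-2843, tumor and naive brain differed less, and only the alpha genes passed. Hba-a1 had 23.5 ± 3.47 CPM in naive brain and 17.6 ± 1.76 in tumor (SD, n = 2), a log2 fold change of -0.41 ± 0.09 (edgeR adjusted p = 0.00522). Hba-a2 was at 21.2 ± 2.36 and 16.5 ± 1.94 CPM, a change of -0.36 ± 0.09 (edgeR adjusted p = 0.00832). Its call was lost in a fit of these 2 groups alone (edgeR adjusted p = 0.0537), without MRX-2843 naive library 1 (edgeR adjusted p = 0.0622) and when MRX-2843 tumor library 1 was left out (edgeR adjusted p = 0.0936).

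The beta genes did not pass in this comparison. Hbb-bs had 17.7 ± 2.82 CPM in naive brain and 15.0 ± 1.22 in tumor (-0.25 ± 0.10, edgeR adjusted p = 0.0776), and passed without MRX-2843 naive library 1 (-0.39, edgeR adjusted p = 0.00264), without MRX-2843 tumor library 2 (-0.33, edgeR adjusted p = 0.0473) and with vehicle tumor library 1 or 2 left out (edgeR adjusted p = 0.0331 and 0.0349). Hbb-bt had 12.5 ± 0.0368 and 11.6 ± 0.791 CPM (-0.11 ± 0.09, edgeR adjusted p = 0.405). Alas2 had 0.404 ± 0.0782 and 0.513 ± 0.319 CPM (0.32 ± 0.57, edgeR adjusted p = 0.773). Of all genes tested, 24.4% passed in this comparison, 11.9% as lower in tumor.

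**Figure D2:**
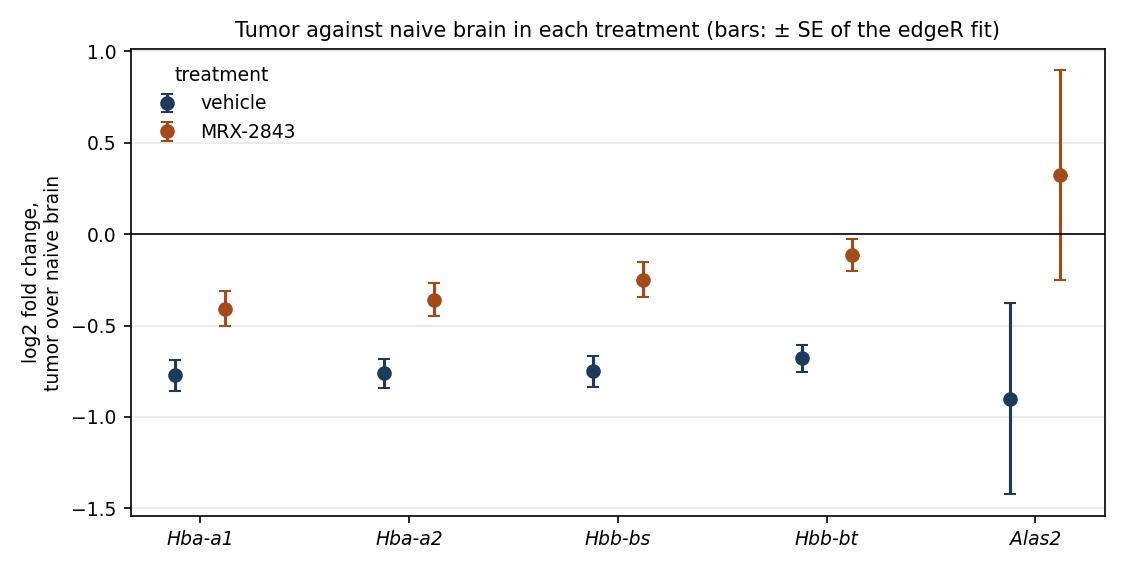
Log2 fold change of tumor over naive brain for each gene, in vehicle (dark blue) and in MRX-2843 (brown) mice, with bars of ± 1 SE from the edgeR fit. With vehicle the 4 globin genes lie between -0.77 and -0.68, with MRX-2843 between -0.41 and -0.11, and the bars of Alas2 are wide.

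The difference between those differences, the interaction of treatment and tissue, passed for the 4 globin genes. It was 0.36 ± 0.13 log2 units for Hba-a1 (edgeR adjusted p = 0.0259), 0.40 ± 0.12 for Hba-a2 (edgeR adjusted p = 0.0104), 0.50 ± 0.13 for Hbb-bs (edgeR adjusted p = 0.00404) and 0.56 ± 0.11 for Hbb-bt (edgeR adjusted p = 0.000679). For Alas2 it was 1.22 ± 0.78 (edgeR adjusted p = 0.21). Positive values mean a smaller tumor deficit with MRX-2843. Of all genes tested 51.6% passed this test, 26.3% with a positive sign. With library totals the values fell to 0.15, 0.19, 0.28 and 0.35, and only Hbb-bt still passed (edgeR adjusted p = 0.0218, against 0.383 for Hba-a1, 0.229 for Hba-a2 and 0.0775 for Hbb-bs).

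Single libraries also decided the alpha values of the interaction. The Hba-a1 call was lost without vehicle naive library 2 (0.31, edgeR adjusted p = 0.0888), MRX-2843 naive library 2 (0.21, edgeR adjusted p = 0.144) or MRX-2843 tumor library 2 (0.25, edgeR adjusted p = 0.133). The Hba-a2 call was lost without MRX-2843 naive library 2 (0.28, edgeR adjusted p = 0.0552) or MRX-2843 tumor library 2 (0.27, edgeR adjusted p = 0.0747).

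Ratios between the genes within a library do not depend on scaling. The ratio of alpha to beta counts, Hba-a1 and Hba-a2 over Hbb-bs and Hbb-bt, was 1.51 and 1.48 in vehicle naive brain, 1.44 and 1.46 in vehicle tumor, 1.73 and 1.26 in the MRX-2843 naive libraries, and 1.25 and 1.31 in MRX-2843 tumor. The MRX-2843 naive libraries differed from each other beyond counting error, with exact 95% binomial intervals of 1.62 to 1.85 and 1.21 to 1.32, while the 4 vehicle libraries stayed within 1.44 to 1.51. The first of these 2 libraries had the highest ratio of the 8.

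The ratio of Hba-a2 to Hba-a1 was 0.882 to 0.946 over all 8 libraries, the steadiest of the ratios. That of Hbb-bs to Hbb-bt was 1.62 and 1.51 in vehicle naive brain, 1.47 and 1.49 in vehicle tumor, 1.25 and 1.57 in the MRX-2843 naive libraries, and 1.28 and 1.31 in MRX-2843 tumor. Alas2 gave 2.93 and 3.54 counts per 1000 globin counts in vehicle naive brain, 1.83 and 4.01 in vehicle tumor, 4.52 and 6.30 in the MRX-2843 naive libraries, and 13.0 and 4.43 in MRX-2843 tumor. All 4 MRX-2843 libraries lay above all 4 vehicle libraries in this ratio, by little in 2 of them. The highest value, 13.0, had an interval of 9.38 to 17.7. Those of 4.52 and 4.43, at 2.6 to 7.2 and 2.6 to 7.1, took in the vehicle values 2.93, 3.54 and 4.01. The ratio is divided by the globin counts, whose fall with MRX-2843 chose the genes, so it is a description and supports nothing by itself.

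**Figure D3:**
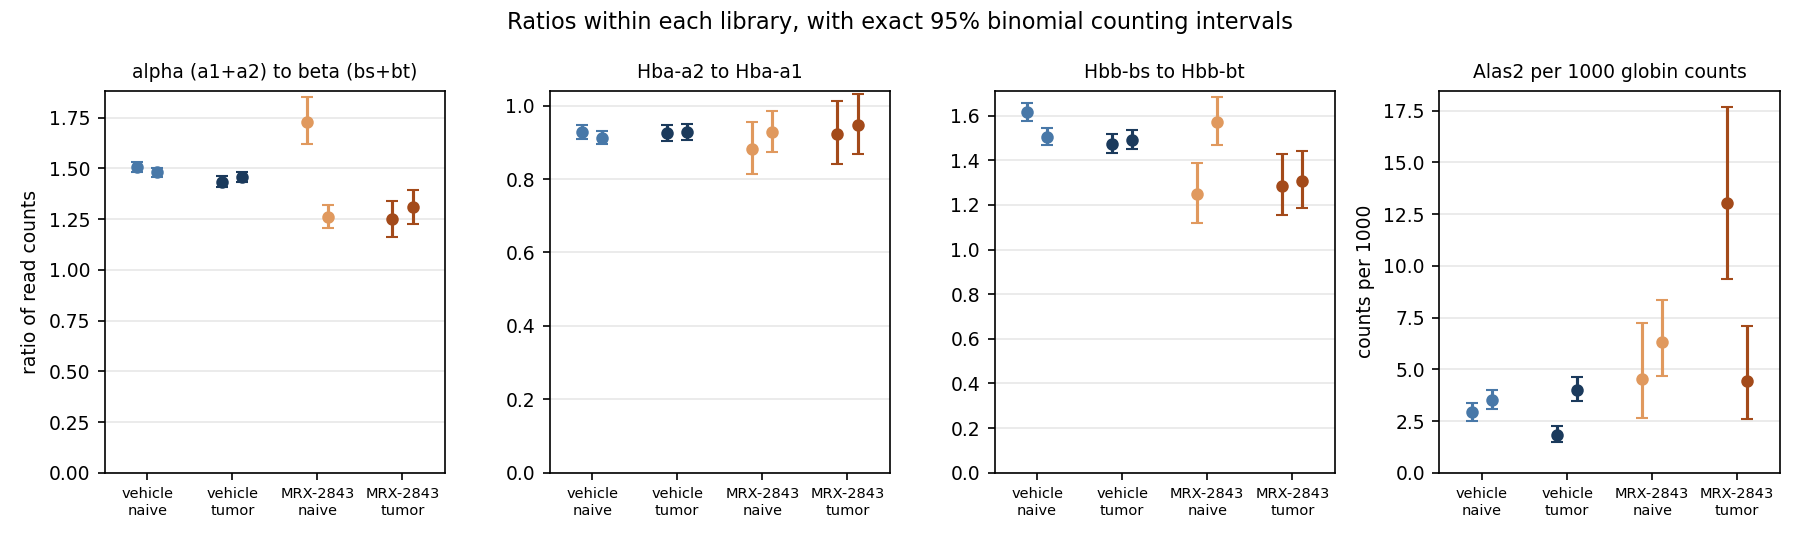
Ratios of read counts within each library, with exact 95% binomial intervals: alpha to beta, Hba-a2 to Hba-a1, Hbb-bs to Hbb-bt, and Alas2 counts per 1000 globin counts. Each point is a library; MRX-2843 naive library 1 stands above the rest in the first panel at 1.73, and MRX-2843 tumor library 1 in the last at 13.0.

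Genes of erythroid development showed no common direction between the naive groups. Gata1, the master transcription factor gene of the lineage, had 0 to 14 counts per library. It was under the filter and untested, as were Epb42, Kel and Car1. Epb42 and Kel had counts in 1 vehicle naive library each, 12 and 4, and in no other. Of the 12 erythroid transcription factor genes listed, 10 were tested, and between MRX-2843 and vehicle naive brain 2 were higher and 2 lower (median log2 fold change 0.25), where 9.78% of all genes tested were higher and 11.7% lower (median 0.02).

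The 4 most abundant of these transcription factor genes are also active in other cells of the brain. Ldb1, the gene of an adaptor that bridges GATA1 complexes, did not pass between the naive groups (0.12 ± 0.07, edgeR adjusted p = 0.231). Bcl11a, a repressor of fetal globin genes that neurons also use, fell from 68.7 ± 3.87 to 41.5 ± 0.123 CPM (-0.73 ± 0.08, edgeR adjusted p = 1.4e-05). Lmo2, the gene of a partner of TAL1 and GATA1 that endothelium also uses, rose from 18.9 ± 2.15 to 24.5 ± 0.0458 CPM (0.38 ± 0.10, edgeR adjusted p = 0.0161). Zfpm1, the gene of the GATA1 cofactor FOG1, fell from 31.6 ± 0.438 to 16.2 ± 1.00 CPM (-0.97 ± 0.12, edgeR adjusted p = 3.46e-05). In tumor, 1 of the 10 was higher and 5 lower with MRX-2843 than with vehicle (median -0.87), where 30.6% of all genes tested were higher and 29.8% lower. In vehicle mice 6 of the 10 were higher in tumor than in naive brain and 1 was lower (median 1.57), while the globins were lower there. The shares of all genes tested were 29.3 and 30.8%.

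Heme synthesis genes other than Alas2 mostly did not pass between the naive groups, with 1 of 12 higher and 1 lower (median 0.05). The shares of all genes tested were 9.78 and 11.7%. Alas1 was at 46.3 ± 0.188 CPM with vehicle and 41.7 ± 2.72 with MRX-2843 (-0.15 ± 0.09, edgeR adjusted p = 0.27), Alad, the second enzyme of the pathway, at 72.6 ± 3.45 and 65.3 ± 0.223 (-0.15 ± 0.07, edgeR adjusted p = 0.178), and Fech, which inserts iron in the last step, at 42.0 ± 4.14 and 35.9 ± 1.22 (-0.23 ± 0.09, edgeR adjusted p = 0.077). Ppox, the penultimate enzyme, rose from 36.3 ± 0.852 to 44.1 ± 5.10 CPM (0.28 ± 0.09, edgeR adjusted p = 0.0384). In tumor 4 were higher and 4 lower with MRX-2843 (median -0.02), against 30.6 and 29.8% of all genes tested. In vehicle mice 3 were higher and 3 lower in tumor than in naive brain (median 0.04), against 29.3 and 30.8%. No common direction was seen. Alas1 rose in vehicle tumor from 46.3 ± 0.188 to 64.05 ± 6.05 CPM (0.47 ± 0.09, edgeR adjusted p = 0.000246), the opposite sign to Alas2.

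Of red cell membrane and cytoskeleton genes, 12 of 17 were tested. With MRX-2843 in naive brain 2 were higher and 1 lower (median -0.04), against 9.78 and 11.7% of all genes tested. The 4 most abundant, Dmtn, Add2, Sptb and Epb41, encode proteins of the spectrin skeleton that neurons also build. Dmtn fell between the naive groups by 0.42 ± 0.06 on the log2 scale from 356 ± 7.67 CPM (edgeR adjusted p = 0.00012), and Epb41 rose by 1.00 ± 0.07 from 46.9 ± 2.05 CPM (edgeR adjusted p = 6.3e-08), while Add2 (-0.17 ± 0.10, edgeR adjusted p = 0.276) and Sptb (0.21 ± 0.08, edgeR adjusted p = 0.0801) did not pass. In vehicle mice 3 of the 12 were higher in tumor and 5 lower (median -0.62), against 29.3 and 30.8% of all genes tested. Dmtn was lower by -4.74 ± 0.07 (edgeR adjusted p = 1.93e-16) and Add2 by -4.77 ± 0.12 (edgeR adjusted p = 3.8e-14). Neuron markers fell in the same comparison in 12 of 12 cases, and their part in these values was not tested.

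The 3 membrane genes that passed as higher in vehicle tumor than in vehicle naive brain, where the globins were lower, were Slc4a1, Gypc and Aqp1; they and Rhag were chosen after their values were seen. Gypc, the gene of a membrane protein that many cell types share, rose from 2.07 ± 0.152 to 9.84 ± 1.5 CPM (2.25 ± 0.29, edgeR adjusted p = 8.77e-06), and Aqp1, a water channel gene also of the choroid plexus, from 0.548 ± 0.0373 to 165 ± 0.193 CPM (8.23 ± 0.20, edgeR adjusted p = 3.21e-14). Slc4a1, the gene of the band 3 anion exchanger, had 256 and 260 counts in vehicle tumor, 0 in both vehicle naive libraries, 0 and 4 in the MRX-2843 naive libraries, and 3 and 4 in MRX-2843 tumor. Set against 3 counts over the vehicle naive group, it was at least 134.7-fold higher in vehicle tumor (edgeR adjusted p = 5.79e-06). Rhag, the gene of the Rh-associated ammonium channel, had 24 and 18 counts in vehicle tumor and 0 in the other 6 libraries, at least 10.97-fold higher than in vehicle naive brain, but did not pass (edgeR adjusted p = 0.0542).

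The late erythroid and reticulocyte list, with 15 of 16 measured genes tested, had 0 higher and 5 lower members with MRX-2843 in naive brain (median -0.02), where 11.7% of all genes tested were lower. In tumor 8 were higher and 3 lower with MRX-2843 (median 0.50), against 30.6 and 29.8% of all genes tested. In vehicle mice 2 were higher in tumor than in naive brain and 8 lower (median -0.51), against 29.3 and 30.8%. Its most abundant genes are not particular to red cells. Car2, a carbonic anhydrase gene, fell by 0.38 ± 0.05 on the log2 scale from 205 ± 5.19 CPM (edgeR adjusted p = 8.66e-05), and Bnip3l, which drives mitochondrial clearance in reticulocytes, fell by 0.52 ± 0.08 from 120 ± 12.5 CPM (edgeR adjusted p = 0.000164). Prdx2, an abundant red cell peroxiredoxin gene, was at 167 ± 2.11 and 165 ± 9.48 CPM (-0.02 ± 0.06, edgeR adjusted p = 0.896). Neuron markers also differed between the naive groups, with 4 of 12 higher and 6 lower with MRX-2843 (median -0.15). The shares of all genes tested were 9.78 and 11.7%. Of the 4 most abundant, the synaptic gene Snap25 fell by 0.91 ± 0.05 (edgeR adjusted p = 2.77e-09), and the glutamate transporter gene Slc17a7 fell by 3.49 ± 0.05 from 1685 ± 19.1 to 150 ± 3.14 CPM (edgeR adjusted p = 1.81e-14), while Eno2 (0.13 ± 0.05, edgeR adjusted p = 0.0793) and Map2 (0.08 ± 0.05, edgeR adjusted p = 0.316) did not pass. The 4 that rose were Gad1 by 0.59 ± 0.11 and Gad2 by 1.60 ± 0.07, genes of GABA synthesis, Nefl by 0.26 ± 0.06 and Th by 1.27 ± 0.25 (edgeR adjusted p from 7.2e-10 to 0.00399). Whether the same part of the brain was taken was not tested.

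Other globin genes rose or did not pass in naive brain with MRX-2843, where Hba-a1, Hba-a2, Hbb-bs and Hbb-bt were lower. Of 11 listed, 9 were measured and 6 tested. In naive brain 2 were higher and 0 lower with MRX-2843 (median 0.73), against 9.78 and 11.7% of all genes tested. Ngb, neuroglobin of neurons, rose from 4.79 ± 0.478 to 24.5 ± 1.30 CPM (2.36 ± 0.14, edgeR adjusted p = 1.74e-08), and Cygb, cytoglobin of fibroblast-like cells, rose from 58.5 ± 1.88 to 97.15 ± 0.590 CPM (0.73 ± 0.07, edgeR adjusted p = 4.09e-06). In tumor Cygb was higher with MRX-2843 (0.61 ± 0.08, edgeR adjusted p = 4.73e-06) and Ngb lower (-2.78 ± 0.14, edgeR adjusted p = 2.09e-10). Hbq1a, of the alpha globin cluster, and Mb, the myoglobin gene, had group means of at most 0.658 CPM and did not pass in any comparison of 2 groups. The embryonic beta-like genes Hbb-bh1 and Hbb-bh2 had 0 counts in all 8 libraries.

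Most markers of vessels did not pass in naive brain, where the globins differed most. Of 12 endothelial markers 1 was higher and 0 lower with MRX-2843 in naive brain (median 0.03), against 9.78 and 11.7% of all genes tested. The summed level of the list was 318 and 324 CPM with vehicle and 328 and 319 CPM with MRX-2843. Cldn5, the tight junction gene of brain endothelium, was at 34.1 ± 3.77 and 32.3 ± 2.94 CPM (-0.08 ± 0.09, edgeR adjusted p = 0.622), Ly6c1 at 66.3 ± 0.82 and 66.6 ± 7.13 CPM (0.00 ± 0.08, edgeR adjusted p = 0.996) and Slco1a4 at 58.5 ± 0.90 and 50.8 ± 0.0618 CPM (-0.20 ± 0.07, edgeR adjusted p = 0.07), while Vwf rose by 0.54 ± 0.12 (edgeR adjusted p = 0.00317).

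Between vehicle tumor and vehicle naive brain these vessel markers and the globins moved in opposite directions. Of the 12, 10 were higher in tumor and 0 lower (median 1.55), where 29.3% of all genes tested were higher and 30.8% lower. The summed level of the 12 was 853 and 861 CPM in tumor, against 318 and 324 CPM in naive brain. Cldn5 rose by 2.28 ± 0.09 (edgeR adjusted p = 1.18e-11) and Vwf by 3.02 ± 0.12 (edgeR adjusted p = 7.18e-12). In the MRX-2843 tumor libraries the summed level was 323 and 330 CPM, as in naive brain. There 11 of 12 were lower than in vehicle tumor (median -1.48), against 29.8% of all genes tested.

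Markers of other blood cells were scarce in naive brain. The 15 neutrophil markers summed to 10.87 and 11 CPM in vehicle naive brain, 116 and 126 in vehicle tumor, 15.0 and 12.7 in the MRX-2843 naive libraries, and 14.7 and 16.9 in MRX-2843 tumor. Of the 6 tested, 1 was higher and 0 lower with MRX-2843 in naive brain, against 9.78 and 11.7% of all genes tested. The 1 was Lcn2, the lipocalin 2 gene, which glia can also express, at 0.187 ± 0.223 and 1.84 ± 0.768 CPM (edgeR adjusted p = 0.000596). S100a8, a gene neutrophils express strongly, had 0 to 44 counts per library. Vehicle tumor thus had the highest sum of this list, of which Csf3r and Lcn2, at 64.7 ± 7.75 and 54.1 ± 0.38 CPM, made up nearly all. Every other gene of the list had a mean of at most 1.025 CPM there, S100a8 0.368 CPM. Whether the sum reflects neutrophils was not tested.

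The 13 platelet and megakaryocyte markers summed to 12.7 and 12.9 CPM in vehicle naive brain, 12 and 10.1 in vehicle tumor, 8.98 and 12.5 in the MRX-2843 naive libraries, and 9.11 and 13.5 in MRX-2843 tumor. Both MRX-2843 naive libraries lay below the vehicle naive ones, the second by little, and the MRX-2843 tumor range took in all the others except the lowest library, of MRX-2843 naive brain. Of the 10 tested, 0 were higher and 2 lower with MRX-2843 in naive brain (median -0.11), against 9.78 and 11.7% of all genes tested. The 2 were Pf4, the platelet factor 4 gene, at 1.34 ± 0.337 and 0.422 ± 0.0407 CPM (-1.67 ± 0.56, edgeR adjusted p = 0.0462), and Itgb3, an integrin gene, at 3.31 ± 0.211 and 1.67 ± 0.536 CPM (-1.002 ± 0.34, edgeR adjusted p = 0.0477). Itga2b, the partner of Itgb3 in platelets, did not pass (0.33 ± 0.31, edgeR adjusted p = 0.546), nor did Gp1ba (-0.83 ± 0.80, edgeR adjusted p = 0.553). Lymphocyte markers were called in few cases between the naive groups, against the same shares. Of 9 B cell markers 1 was higher and 0 lower, and of 12 T and NK cell markers 1 was higher and 1 lower. In vehicle tumor 8 of the 9 and 11 of the 12 were higher than in vehicle naive brain and 0 lower, against 29.3 and 30.8% of all genes tested. With MRX-2843 in tumor, 8 and 10 were lower than with vehicle and 0 higher, where 29.8% of all genes tested were lower.

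**Figure D4:**
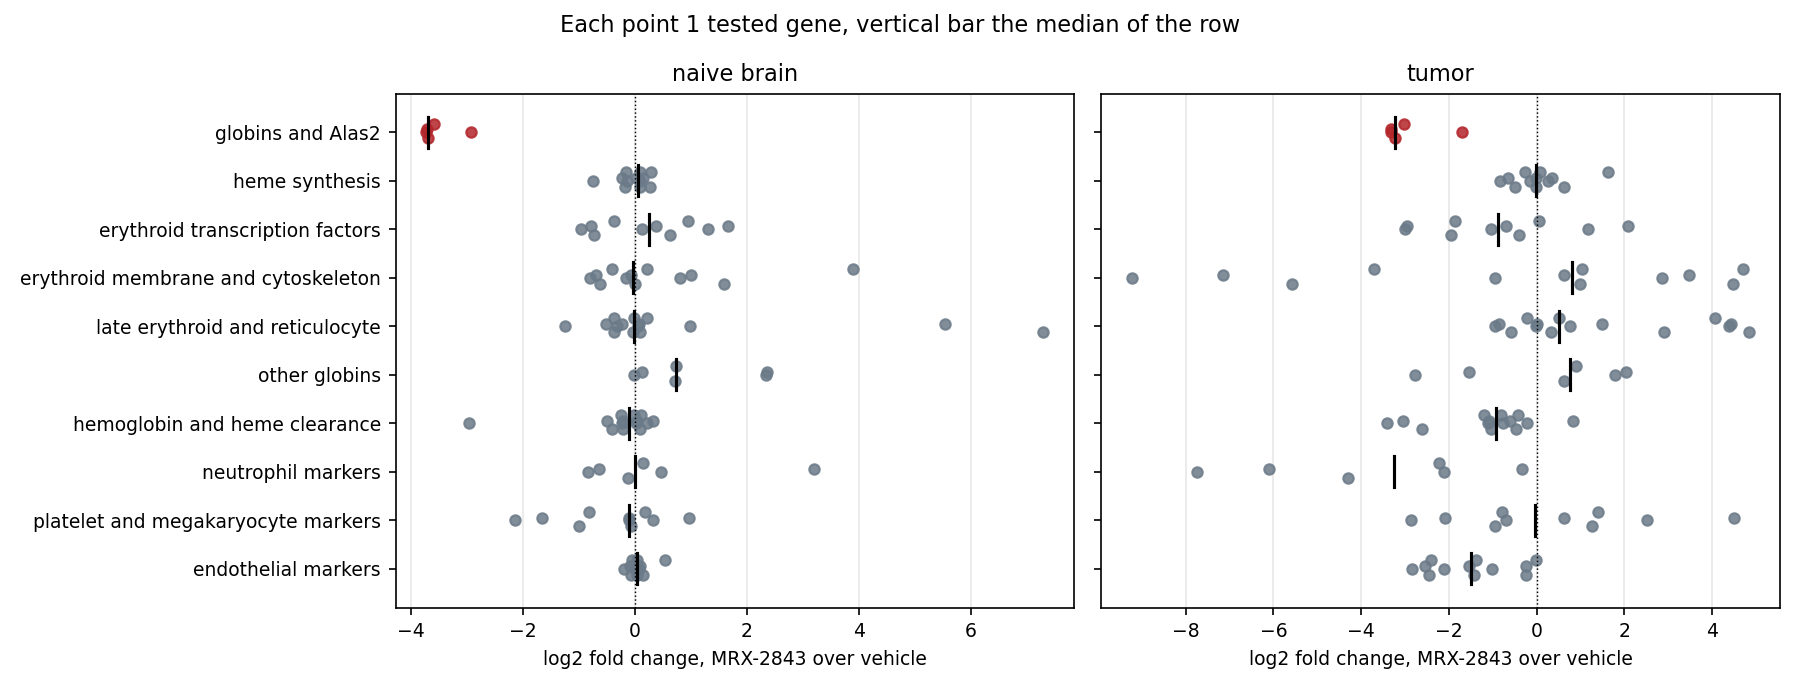
Log2 fold change of MRX-2843 over vehicle in naive brain (left) and in tumor (right), each point a tested gene of the list named at the left and each vertical bar the list's median; the panels have different axis ranges. The 5 red cell genes lie at -3.73 to -2.93 in naive brain, where the endothelial median is 0.03; points beyond 5 units include genes with 0 counts in a group, whose fitted values depend on the prior count.

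Genes that clear hemoglobin and heme mostly rose in vehicle tumor, where the globins fell. Of 14 listed, 1 was higher and 2 were lower with MRX-2843 in naive brain (median -0.11), against 9.78 and 11.7% of all genes tested. In vehicle mice 8 were higher in tumor and 1 lower (median 0.77), against 29.3 and 30.8% of all genes tested. Hmox1, the heme oxygenase gene, rose from 3.40 ± 0.71 to 42.2 ± 0.65 CPM in vehicle tumor (3.63 ± 0.16, edgeR adjusted p = 3.56e-11) and was at 3.66 ± 0.0393 and 3.99 ± 0.077 CPM in the MRX-2843 groups. Lrp1, the receptor gene for heme bound to hemopexin, rose from 329 ± 8.05 to 2563 ± 74.4 CPM in vehicle tumor (2.96 ± 0.05, edgeR adjusted p = 7.67e-16).

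Of the other abundant genes of this list, Slc48a1, a heme transporter gene, rose in vehicle tumor by 0.57 ± 0.06 (edgeR adjusted p = 1.3e-06) and Ftl1, the ferritin light chain gene, by 1.37 ± 0.08 (edgeR adjusted p = 4.1e-10), while Fth1, the ferritin heavy chain gene, fell by 0.48 ± 0.03 on the log2 scale (edgeR adjusted p = 7.47e-09). Slc48a1 was the only member of this list that passed as lower with MRX-2843 in both tissues, by -0.49 ± 0.06 in naive brain and -0.62 ± 0.06 in tumor (edgeR adjusted p = 4.05e-05 and 5.72e-07), as 3.87% of all genes tested did. Microglia markers, which include cells that take up heme, rose in vehicle tumor in 10 of 10 cases, against 29.3% of all genes tested. Their part in these values was not tested.

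Of 13 tested genes of hypoxia and erythropoietin signalling, 1 was higher and 4 were lower with MRX-2843 in naive brain (median -0.01). The shares of all genes tested were 9.78 and 11.7%. In tumor 4 were higher and 6 lower (median -0.37), against 30.6 and 29.8% of all genes tested. Slc2a1, the glucose transporter gene, was at 150 ± 5.01 and 157 ± 2.31 CPM in the naive groups (0.07 ± 0.06, edgeR adjusted p = 0.442), Epas1, the gene of HIF-2 alpha, at 139 ± 9.48 and 138 ± 4.84 CPM (-0.01 ± 0.06, edgeR adjusted p = 0.968), and Egln2, a gene of a HIF prolyl hydroxylase, at 104 ± 1.16 and 104 ± 15.2 CPM (-0.01 ± 0.10, edgeR adjusted p = 0.989). Vegfa rose by 0.29 ± 0.07 (edgeR adjusted p = 0.0103). Between vehicle tumor and naive brain 7 were higher and 4 lower (median 0.44), against 29.3 and 30.8% of all genes tested. Epas1 was higher in tumor by 0.91 ± 0.06 (edgeR adjusted p = 2.97e-09).

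Genes were compared with the globins if they were no members and had an ordinary symbol (not of the Gm, Rik, ENSMUSG or LOC kind). They also needed a mean log2 CPM of at least 0 and a slope of 0.5 to 2 on the globins. Of these 286 genes, 10 had log2 levels over the 8 libraries most like the mean of the 4 globin genes. They were Egln3, Tuba8, Ccdc3, Nrn1, Batf3, Foxc2, Frzb, Nnmt, Prg4 and Fam180a, with Pearson's r from 0.949 down to 0.801. For Alas2 r was 0.915, and for the globin genes, each part of the mean, it was at least 0.998. The 8 libraries form a high and a low set for these genes, so r mostly measures that step, and it is given as a description without a p.

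Egln3, the gene of another HIF prolyl hydroxylase, came nearest. It was at 15.4 and 16.7 CPM in vehicle naive brain, 18.3 and 18.4 in vehicle tumor, 3.20 and 3.15 in the MRX-2843 naive libraries, and 4.85 and 4.47 in MRX-2843 tumor. Unlike the globins it was not lower in vehicle tumor than in vehicle naive brain (0.19 ± 0.14, edgeR adjusted p = 0.275) and was higher in MRX-2843 tumor than in MRX-2843 naive brain (0.55 ± 0.16, edgeR adjusted p = 0.019). Ccdc3 had group means of 28.1 ± 0.811, 35.8 ± 0.441, 3.40 ± 0.684 and 7.92 ± 0.265 CPM (SD, n = 2) in the same order of groups. Of the 10 only Batf3, a transcription factor gene of dendritic cells, and Frzb, the gene of a secreted Wnt antagonist, had a lower mean in vehicle tumor than in vehicle naive brain, Frzb at 17.4 ± 2.96 against 38.6 ± 0.552 CPM.

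**Figure D5:**
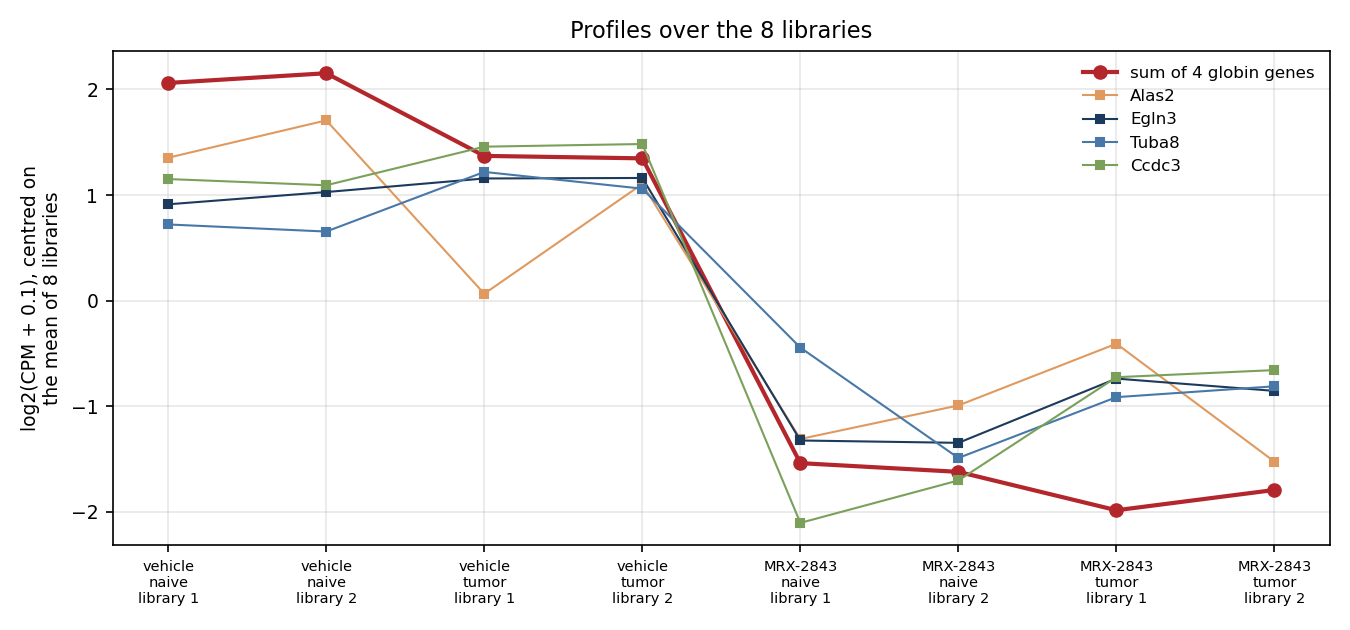
Level of the summed globin genes, Alas2 and the 3 genes most like the globins in each of the 8 libraries, as log2(CPM + 0.1) centred on the mean of the 8; the lines only join the points of a gene. All 5 profiles are higher in the 4 vehicle than in the 4 MRX-2843 libraries, and among vehicle libraries the globins are lower in tumor than in naive brain while Egln3, Tuba8 and Ccdc3 are not.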

How the data were processed

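The authors deposited a table of unnormalized read counts, all whole numbers, with 55414 gene rows and a column for each of 8 RNA-seq libraries. Per the submitters' processing notes, STAR 2.7.7a, SAMtools, featureCounts and Subread were used, with the builds hg38 and mm10; their roles, the strand setting, the treatment of reads that match several genes and the annotation are not given in the sources used here. Per the labels, RNA was extracted with a GenCatch kit. Of the gene identifiers, 52081 (94.0%) matched GENCODE M21 on GRCm38 without their version and 35 with it. The members, the 15 gene lists, the comparisons and the alternatives were chosen with earlier results of these data known.

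The fit over all genes used edgeR 4.0.16 (R 4.3.3), with TMM factors, the filterByExpr rule (minimum count of 10, by group) and quasi-likelihood tests on 4 group means with 4 residual degrees of freedom. The 24356 genes tested were adjusted together by Benjamini-Hochberg, and a gene passed at an adjusted p under 0.05. The common biological coefficient of variation was 21.0%. A floor of 3 counts is 0.0281 to 0.0615 CPM per library. With 2 libraries against 2, an exact two-sided permutation test of a single value cannot go below 0.333, so none was used. The code was tested on simulated data.

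Named genes are the 5 members, the 4 members of a list with the highest mean CPM (some lists are given by counts only, and a gene that the rule names is not reported here), and the 10 genes most like the globins; Gata1, Epb42, Kel, Car1, Slc4a1, Rhag, Gypc, Aqp1, Gad1, Gad2, Nefl, Th, Hmox1, Hbb-bh1 and Hbb-bh2 were named after their values were seen. Alternatives were DESeq2's scaling and its test (DESeq2 1.42.0), library totals, no filter, a filter at 1 CPM in 2 libraries, totals without mitochondrial or without globin genes, both copies of a pair summed, only the 2 groups compared, a replicate block and leaving out each library; a fit without both MRX-2843 tumor libraries was added after the data were seen. Promoter sequences are from RefSeq on GRCm38.p6, where all 5 members matched. Python 3.11.15, pandas 2.3.3, NumPy 2.4.6, SciPy 1.17.1, Biopython 1.88 and matplotlib 3.10.9 made tables, alignments and plots.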

Additional observations from a re-analysis of the deposited data

Results flagged for a closer look

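The gap between tumor and naive brain differed between the treatments for the 4 globin genes, by the test of that difference itself (edgeR's quasi-likelihood test, adjusted over 24356 genes). The difference was 0.36 log2 units for Hba-a1, 0.40 for Hba-a2, 0.50 for Hbb-bs and 0.56 for Hbb-bt, with the smaller gap in MRX-2843 mice. Since the coding sequences of a pair are nearly identical, these are counted as 2 separate measurements. Of the 4 calls only that of Hbb-bt was kept with library totals. The libraries labelled MRX-2843 tumor are those that resembled naive brain, and the part of that in the difference was not tested.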

How the results depend on the processing

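The counts of changed genes stayed within 1.5 times in every alternative run: 13098 to 14932 for tumor against naive brain with vehicle, 4666 to 6444 with MRX-2843, 11582 to 12936 for the interaction, and 3835 to 5795 and 13389 to 15059 for MRX-2843 against vehicle in naive brain and in tumor. The fall of the 4 globin genes in vehicle tumor passed in all 19 alternatives (Hba-a1 -0.82 to -0.52). In MRX-2843 mice, Hba-a1 passed in all 18 (edgeR or DESeq2 adjusted p up to 0.0472). Hbb-bs also passed there without a filter on low counts (adjusted p = 0.0117). Alas2 reversed there, to -0.51, without MRX-2843 tumor library 1, and was 0.86 without library 2. The described log2 fold change of Hba-a1 with MRX-2843 was -3.84 to -3.54 in naive brain and -3.55 to -3.23 in tumor, lowest in tumor with library totals, which moved the median of all genes to -0.18 from 0.03 in that comparison. Without mitochondrially encoded genes in the totals, the globin share of counts was 0.108% in vehicle naive brain, 0.0676% in vehicle tumor, 0.00870% in MRX-2843 naive brain and 0.00710% in MRX-2843 tumor; the smaller total raises each share by construction. Replicate numbers did not pair the libraries: correlations of same-numbered deviations ran from -0.021 to 0.0045. With the replicate block, 14120, 5759, 12113, 5067 and 14226 genes passed in the 5 comparisons, in the order above, and it changed no call of the 5 genes. Calls that changed in other alternatives stand beside their values in the report; their cause was not tested. Depth limits Alas2, with 17 to 49 counts in the MRX-2843 libraries.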

Other observations

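Of genes with 1 to 50 counts, 76.0 to 80.5% had an even count in each library. The counting intervals treat each count as independent. The cause of the even counts was not tested.

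A fit without both MRX-2843 tumor libraries tested 23643 genes. Between vehicle tumor and vehicle naive brain it called 31.1% higher and 31% lower, and 11 of the 15 lists had the same counts as with all libraries. The others were the endothelial markers (11 of 12 higher and 0 lower), the platelet markers (0 of 10 higher and 2 lower), the membrane genes (4 of 11 higher and 5 lower) and the late erythroid genes (3 of 15 higher and 8 lower). Between the naive groups it called 9.63% higher and 12.3% lower, and again 11 lists had the same counts. There the heme synthesis genes had 0 of 12 higher and 1 lower, the T and NK cell markers 1 of 12 higher and 2 lower, the endothelial markers 1 of 12 higher and 1 lower, and the microglia markers 3 of 10 higher and 2 lower.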
